A study of Mus musculus with 6 samples.

Results

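Cardiac lineage transcription factors were followed through an EZH2 RNA immune-precipitation and sequencing (RIP-seq) experiment in the mouse left ventricle. The 10 members, Gata4, Gata6, Nkx2-5, Tbx5, Tbx20, Mef2a, Mef2c, Mef2d, Hand2 and Myocd, were taken by gene name as factors of cardiomyocyte identity and hypertrophic growth, and all 10 were found among the 46072 named genes in the tables of the separate libraries. RIP-seq recovers RNAs that an antibody pulls down with its target protein, here EZH2, beside those recovered by normal IgG. Left ventricles came from male mice aged 10 weeks, with 2 mice in each of the groups Sham, AngII 4 h and AngII 24 h. AngII (angiotensin II) was infused by osmotic minipump at 1 mg/kg/min for 4 or 24 h, and Sham mice were infused with saline, although the treatment label of the Sham libraries reads Untreated. The strain label was C57BL/6 for the IgG libraries and for Sham anti-EZH2, C57BL/7 for AngII 4 h anti-EZH2 and C57BL/8 for AngII 24 h anti-EZH2. From each group 2 RIP products were pooled per antibody, so that each of the 6 combinations had 1 library. There were no replicates of a combination, and differences between libraries were described without a test, except where the 3 groups together gave one.

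Apart from Myocd, a coactivator, these factors bind DNA side by side at the enhancers of cardiomyocyte genes. There GATA zinc-finger, homeodomain, T-box, MADS-box and bHLH proteins act together, and several of them are activated by hypertrophic signals. EZH2 is the catalytic subunit of Polycomb repressive complex 2 (PRC2), which methylates histone H3 at lysine 27 and also binds RNA with little sequence specificity, with a preference for G-rich RNA that can fold into G-quadruplexes. The mRNAs of lineage factors are of interest because their genes are classical Polycomb targets in cells where they are silent.

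Because of this preference for G-rich RNA, the longest protein-coding transcript of each member (GENCODE M21, GRCm38) was searched on its own strand for 4 runs of at least 3 G separated by 1 to 7 bases. Such a pattern was found in 4 of the 10 members, Nkx2-5, Hand2, Mef2d and Tbx20, with 2 matches in each, all of them in untranslated regions. It was found in 21.9% of the 6878 tested protein-coding genes, whose transcripts had a median length of 2921 nt against 4528 nt for the members. The matches of at most 30 nt are shown as DNA letters 5′ to 3′ on the transcript strand, with the G runs in capitals. The matches of Nkx2-5 lay in exon 1 at chr17:26841439-26841460 (minus strand, 5′ UTR) and in exon 2 at chr17:26838763-26838786 (3′ UTR).
Nkx2-5, 5′ UTR: GGGtgcgcGGGcGGGcggcGGG
Nkx2-5, 3′ UTR: GGGagcctGGGccGGGcgcccGGG
Hand2 held a match in the 5′ UTR in exon 1 at chr8:57321350-57321376 (plus strand).
Hand2, 5′ UTR: GGGGGaGGGGaaGGGGcaggaaGGGGG
The matches of Mef2d lay in the 3′ UTR in exon 11 at chr3:88171729-88171755 and chr3:88171811-88171830 (plus strand).
Mef2d, 3′ UTR, first: GGGGtGGGatgtaatGGGGcaggaGGG
Mef2d, 3′ UTR, second: GGGaagaaGGGaGGGatGGG
The matches of Tbx20 lay in the 3′ UTR in exon 8 at chr9:24725372-24725391 and chr9:24720992-24721012 (minus strand).
Tbx20, 3′ UTR, first: GGGGtGGGaagtaGGGtGGG
Tbx20, 3′ UTR, second: GGGatgtGGGaaGGGtgtGGG

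Members with these patterns did not all lie on the same side of the median gene with anti-EZH2, as the values further on show. In the tables of the separate libraries Nkx2-5 was below it in every group, and Hand2, Mef2d and Tbx20 were above it. Gata6 and Mef2c, without the pattern, were also above it in every group. Among all tested protein-coding genes the median relative anti-EZH2/IgG ratio (defined below) was 0.952 with the pattern and 0.970 without it in Sham, 0.982 and 0.985 after 4 h, and 1.05 and 1.01 after 24 h.

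All 10 members were measured in every library, at levels far below those of the contractile genes they activate. Levels are FPKM (fragments per length of transcript and per size of library), which can be compared between genes because they are per length. The tables were normalized separately for each library. Mean levels over the 6 libraries ranged from 1.57 for Tbx5 to 7.03 for Mef2d, whereas Myl2, the ventricular myosin light chain, lay between 2114 and 3934 FPKM. In every library Mef2d, Myocd, Mef2a, Mef2c, Nkx2-5 and Gata4 took ranks 1 to 6 among the members, and Tbx20, Hand2, Gata6 and Tbx5 took ranks 7 to 10. Within each of these sets the order changed between libraries, and the table's intervals of neighbours overlapped, except those of Tbx20 and Gata6 in the AngII 24 h IgG library. The border between the sets was narrowest in the Sham anti-EZH2 library, where Nkx2-5 was at 2.52 and Hand2 at 2.50 FPKM. It did not hold in the series table, the second deposited form of FPKM, where Tbx20 (1.65) lay above Gata4 (1.39) and Nkx2-5 (1.37) in Sham IgG. The median fold between the highest and the lowest library of a member was 2.10, beside 3.29 over the 7749 tested genes above 0 in all libraries.

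**Figure D1:**
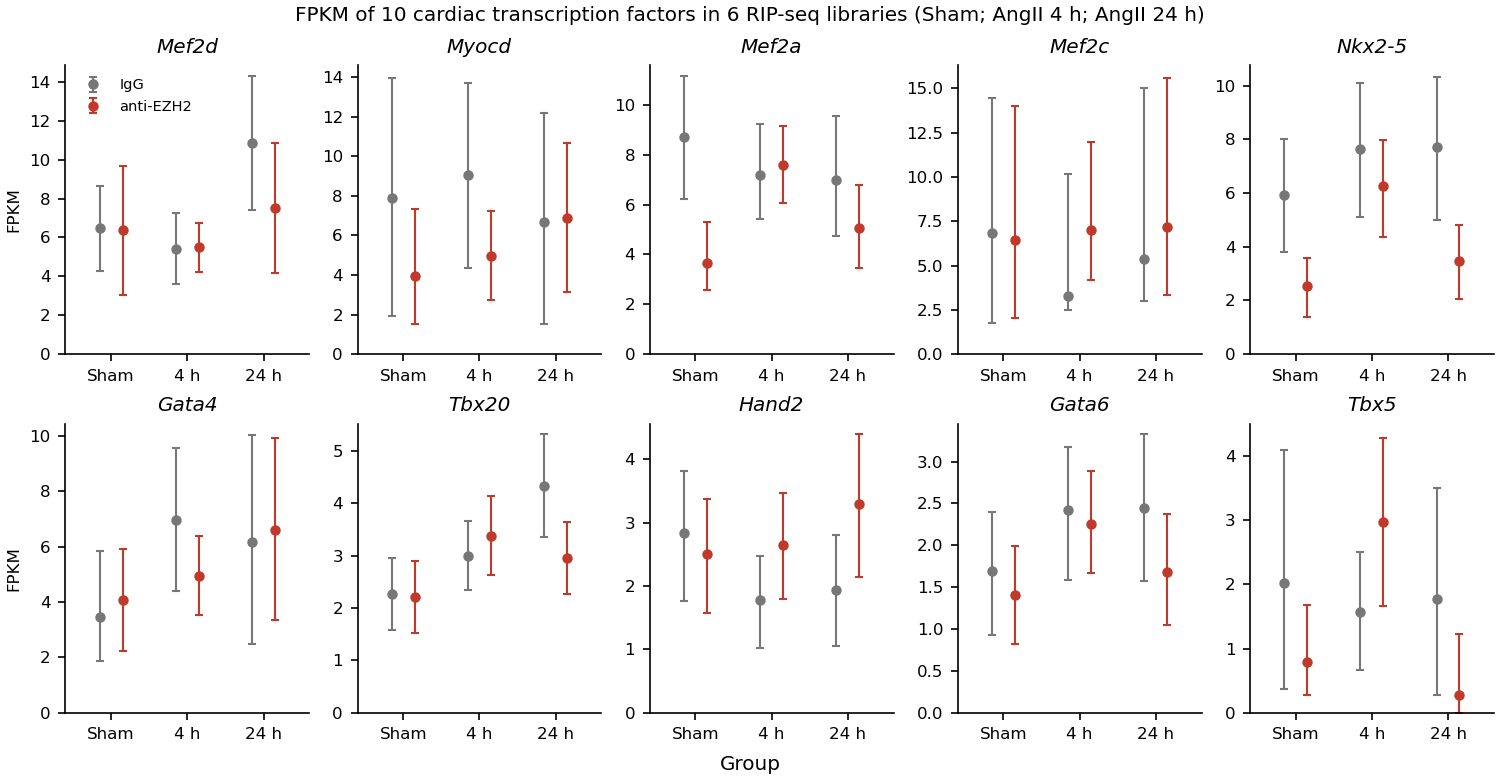
FPKM (y axis, linear from 0) of each member by group (x axis), in IgG libraries (grey) and anti-EZH2 libraries (red), with bars for the interval given in the deposited tables and 1 library per point. Tbx5 spans from 0.279 to 2.97 FPKM, and the wide bars of Mef2c and Myocd cover most of their range.

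The depth behind these levels was modest. The FPKM of genes with 1 short transcript fell on steps of whole fragments, and 64.6% to 67.6% of low values were within 0.1 of a whole fragment, beside 20% by chance. From these steps the libraries were inferred to hold between 3818035 and 7987525 fragments. For Gata6, Nkx2-5 and Hand2, which have 1 transcript in the tables, the values of all libraries corresponded to between 15 and 66 fragments per library. For the other 7 members the fragments behind a value are unknown. Intervals of ratios are therefore exact 95% Clopper-Pearson intervals for Gata6, Nkx2-5 and Hand2, and are combined from the table's interval of each FPKM for the others. Both cover counting or assignment error only, since PCR copies are not independent molecules.

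Markers of cardiomyocytes were present in each library, and atrial markers and markers of other cells differed between groups. Over 6 cardiomyocyte markers the summed level was between 2720 and 4577 FPKM. Of 4 atrial markers Sln was at 0 throughout, while Myl7 was at 14.3 and 12.2 FPKM in the Sham libraries and at most 0.491 after AngII, and the summed level was 29.6 and 44.0 FPKM in Sham against 5.36 to 11.7 FPKM after AngII. Summed erythroid markers (4 globins) ranged from 583 to 1451 FPKM, summed endothelial markers (5 genes) from 24.9 to 38.4, fibroblast markers (5) from 48.1 to 70.9, smooth muscle and pericyte markers (5) from 13.8 to 26.1 and leukocyte markers (5) from 12.3 to 22.0. Adipocyte markers (4) summed to at most 0.521 FPKM, with Plin1 and Ucp1 at 0. Mitochondrially encoded genes took 31.3% of the FPKM in AngII 24 h anti-EZH2, 6.73% in AngII 4 h anti-EZH2 and 12.0% to 13.9% in the other libraries. In tissue RNA, fewer cells of a type and less RNA per cell cannot be told apart.

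The first comparison asked whether the factor mRNAs were recovered more with anti-EZH2 than with IgG. They were not recovered as a group, and single members lay on either side. Each anti-EZH2/IgG ratio of FPKM was divided by the median ratio of the 4843 genes above 1 FPKM in all libraries (0.822 in Sham, 0.925 after 4 h and 0.653 after 24 h), giving a relative ratio, and was called above 2 or below 0.5. The median relative ratio of the members was 1.04 in Sham, 1.12 after 4 h and 1.09 after 24 h, beside 0.999, 1.01 and 0.999 over all genes tested. In Sham 0 members were called above and 1 below, where 16.6% of 8045 genes were above and 13.5% below. After 4 h 2 were above and 0 below, with 12.8% and 10.3% of 8148 genes. After 24 h 2 were above and 1 below, with 16.1% and 16.4% of 7941 genes. The called members were Tbx5, Mef2c and Hand2, and in 0 of these cases were the intervals of the anti-EZH2 and the IgG value apart. Over all genes 1.54% were past 2-fold above with intervals apart and 1.45% below in Sham. These shares were 1.35% and 0.970% after 4 h, and 0.491% and 3.32% after 24 h, so a count of 0 among 10 members says little.

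**Figure D2:**
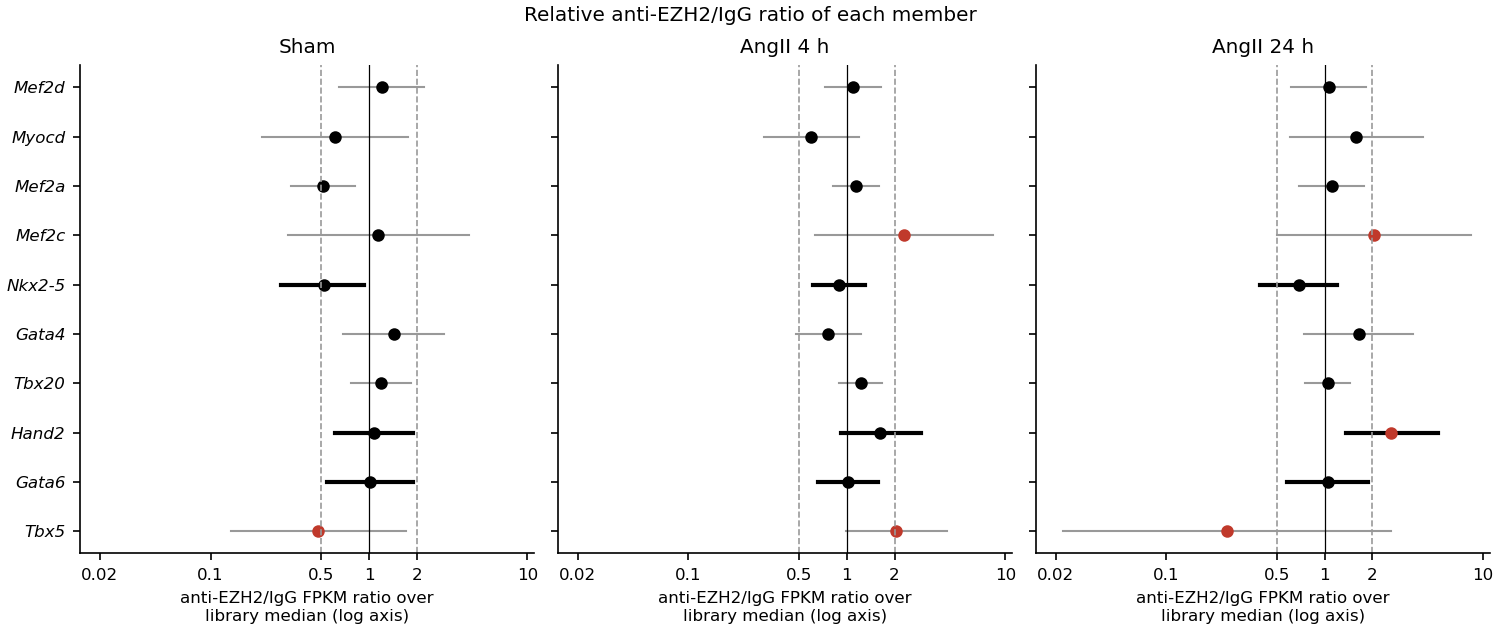
Relative anti-EZH2/IgG ratio (x axis, log scale, 1 is the median gene) of each member in Sham, AngII 4 h and AngII 24 h, with red points past 2-fold (dashed lines), thick black bars for exact 95% intervals and thin grey bars for intervals combined from the tables. Bars of Hand2 at 24 h (1.37 to 5.18), and of Nkx2-5 and Mef2a in Sham, do not reach 1.

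Hand2, a bHLH factor required for growth of the right ventricle and the outflow tract, had the highest relative ratio of any member. In IgG libraries it was at 2.84 (Sham), 1.78 (4 h) and 1.93 FPKM (24 h), from 25, 19 and 15 fragments. In anti-EZH2 libraries it was at 2.50, 2.65 and 3.29 FPKM, from 29, 43 and 32 fragments. The IgG values after AngII were thus the low ones, and the anti-EZH2 value at 24 h the high one. Its relative ratio was 1.07 in Sham (0.606 to 1.91), 1.61 after 4 h (0.919 to 2.93) and 2.61 after 24 h (1.37 to 5.18). Without division by the median the ratio at 24 h was 1.70, with an interval of 0.896 to 3.38 that includes 1. In the series table the relative ratio at 24 h was 2.71.

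The Hand2 locus (ENSMUSG00000038193, chr8:57320983-57324517, mm10) was shared in the tables with the entry Gm28063 (ENSMUSG00000100348, chr8:57320987-57324233), whose strand is not given in the sources used here. RefSeq (GRCm38.p6) lists the name Gm28063 as a synonym of Hand2os1, a long noncoding RNA gene that it places outside the Hand2 locus, whereas GENCODE M21 does not hold the entry and extends Hand2os1 across the Hand2 locus on the opposite strand. A sum of both entries may therefore not be a level of Hand2 mRNA. Gm28063 was at 13.0, 14.9 and 2.65 FPKM in the IgG libraries of Sham, 4 h and 24 h and at 7.98, 8.43 and 2.35 FPKM in the anti-EZH2 libraries. It was low in both libraries of AngII 24 h, where its intervals began at 0, and the split of fragments between the entries is uncertain. With Gm28063 added to Hand2, an alternative chosen after seeing the data, the relative ratio was 0.803 in Sham, 0.721 after 4 h and 1.88 after 24 h, so that Hand2 was no longer past 2-fold.

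Nkx2-5, the homeodomain factor of early heart specification and of conduction, lay on the IgG side. Its IgG levels were 5.94, 7.62 and 7.72 FPKM (34, 53 and 39 fragments) and its anti-EZH2 levels 2.52, 6.25 and 3.48 FPKM (19, 66 and 22 fragments) in Sham, 4 h and 24 h. Every anti-EZH2 value was below the IgG value of its group, and in Sham and at 24 h the table's intervals were apart. Those intervals are of FPKM not divided by the median, and the share of all genes with intervals apart is not given here. The relative ratio was 0.516 in Sham (0.278 to 0.931), 0.886 after 4 h (0.608 to 1.30) and 0.689 after 24 h (0.389 to 1.19). Not divided by the median, these ratios were 0.424, 0.820 and 0.450, and Sham and 24 h were then past 2-fold. Over the 3 groups Nkx2-5 gave 107 fragments with anti-EZH2 and 126 with IgG, while Hand2 gave 104 and 59. Gata6 gave 102 and 88. The anti-EZH2 libraries held 1.38 times as many fragments in all. Per depth these sums had ratios of 0.616 for Nkx2-5, 1.28 for Hand2 and 0.841 for Gata6. They are not divided by the ratio of the median gene, which was itself below 1 (0.822, 0.925 and 0.653 in Sham, 4 h and 24 h).

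Gata6, a zinc-finger factor that overlaps in function with Gata4, varied least between libraries in the separate tables (1.74-fold), although in the series table it ranged from 0.553 to 1.67 FPKM and Tbx20 varied less (1.63 to 2.09 FPKM). Gata6 was at 1.70, 2.42 and 2.45 FPKM in IgG libraries (22, 38 and 28 fragments) and at 1.41, 2.26 and 1.68 FPKM in anti-EZH2 libraries (24, 54 and 24 fragments). The relative ratio was 1.01 (0.541 to 1.89), 1.01 (0.656 to 1.57) and 1.05 (0.581 to 1.87) in Sham, 4 h and 24 h. These intervals leave out a relative ratio of 2 in every group, as did those of Nkx2-5, Tbx20 and Mef2a but of no other member. Its locus (ENSMUSG00000005836, chr18:11052510-11085635) overlaps only at its start with 1010001N08Rik, an entry of the opposite strand.

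Gata4, the related factor that mediates much of the transcriptional response to pressure and angiotensin signals, was at 3.46, 6.98 and 6.18 FPKM in IgG libraries and at 4.06, 4.94 and 6.61 FPKM in anti-EZH2 libraries. The Sham values were the lowest with each antibody. Its relative ratio was 1.43 in Sham (0.684 to 2.99), 0.766 after 4 h (0.479 to 1.22) and 1.64 after 24 h (0.745 to 3.59).

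Tbx5, the T-box factor that activates Nppa and Gja5 with Nkx2-5 and Gata4, was the lowest and most variable member. It was at 2.03, 1.57 and 1.77 FPKM with IgG, and at 0.797, 2.97 and 0.279 FPKM with anti-EZH2 in Sham, 4 h and 24 h. The IgG values were close together and the anti-EZH2 values were 10.6-fold apart. The relative ratio was 0.479 in Sham (0.134 to 1.71), 2.05 after 4 h (0.984 to 4.28) and 0.241 after 24 h (0.0222 to 2.62), each interval including 1. At 24 h the lower bound of the anti-EZH2 value was 0. In the series table the ratios were 0.928, 2.34 and 0.178, but the mean of Tbx5 there was 0.683 FPKM, under the minimum of 1.

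Tbx20, the T-box factor that maintains adult cardiomyocyte function, differed little between antibodies. Its values were 2.26, 2.99 and 4.33 FPKM with IgG and 2.20, 3.38 and 2.95 FPKM with anti-EZH2. The highest was that of the AngII 24 h IgG library, and the Sham values were the lowest. Relative ratios were 1.19 (0.767 to 1.84), 1.22 (0.894 to 1.67) and 1.04 (0.753 to 1.45).

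Among the MADS-box factors, which class IIa histone deacetylases hold in check until stress signals release them, Mef2a had its lowest relative ratio in Sham. It was at 8.69, 7.16 and 6.98 FPKM with IgG and at 3.67, 7.58 and 5.06 FPKM with anti-EZH2. The Sham anti-EZH2 value stood below all the others, and its interval was apart from that of Sham IgG. Those intervals are of FPKM not divided by the median, and the share of all genes with intervals apart is not given here. The relative ratio was 0.513 in Sham (0.322 to 0.819), 1.14 after 4 h (0.817 to 1.60) and 1.11 after 24 h (0.691 to 1.78).

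Mef2c, which is required for looping and growth of the heart tube, was at 6.83, 3.28 and 5.36 FPKM with IgG and at 6.44, 7.00 and 7.17 FPKM with anti-EZH2. The 4 h IgG library held the low value, while the anti-EZH2 values were close to each other. The relative ratio was 1.15 in Sham (0.308 to 4.26), 2.30 after 4 h (0.631 to 8.41) and 2.05 after 24 h (0.499 to 8.41). The tables list 27 start sites for Mef2c, more than for any other member, and its intervals were the widest of the members in Sham and at 4 h. In the series table the ratios after AngII were 1.49 and 1.88, both under 2.

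Mef2d, the family member most tied to stress-dependent remodelling of the adult heart, was at 6.47, 5.43 and 10.9 FPKM with IgG and at 6.38, 5.49 and 7.53 FPKM with anti-EZH2. The antibodies gave nearly the same values in Sham and at 4 h, and the 24 h IgG value was the highest of any member. Relative ratios were 1.20 (0.646 to 2.23), 1.09 (0.726 to 1.65) and 1.06 (0.615 to 1.83), the last being 0.530 in the series table. The locus of Mef2d (ENSMUSG00000001419, chr3:88142372-88172086) overlaps at its end with the antisense gene 1700113A16Rik, which was at 0.611 to 1.66 FPKM.

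Myocd, the coactivator that binds SRF (serum response factor) at muscle genes, was at 7.88, 9.03 and 6.66 FPKM with IgG and at 3.95, 4.97 and 6.88 FPKM with anti-EZH2. Anti-EZH2 values were below IgG values in Sham and at 4 h and level with them at 24 h. The relative ratio was 0.610 (0.212 to 1.76), 0.595 (0.299 to 1.18) and 1.58 (0.602 to 4.15), so no group stood apart from the median gene.

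To ask whether an antibody difference held over the groups, limma was fitted on log2(FPKM + 1) of the series table, with group as a block. The effect of anti-EZH2 was called for 0 of 5036 genes (0.00%) at an adjusted p under 0.05, and 249 genes had an unadjusted p under 0.05. Of the 8 members with a mean above 1 FPKM there (all but Gata6 and Tbx5), 0 were called and 0 had an unadjusted p under 0.05. The largest difference among them was that of Hand2, with 0.48 higher log2(FPKM + 1) with anti-EZH2 (SE 0.30, limma adjusted p = 0.880), followed by Gata4 with 0.38 (SE 0.25, limma adjusted p = 0.880). Nkx2-5 was lower by a log2 difference of -0.19 (SE 0.18, limma adjusted p = 0.888). For Hand2 the 95% interval ran from -0.33 to 1.30, which leaves out a 2-fold lower value on this scale but not a 2-fold higher one. A missed threshold does not show that antibodies recovered the members alike.

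The second comparison asked how the factors changed after AngII. Folds AngII/Sham were taken within IgG and within anti-EZH2 libraries, divided by the median over genes, and called when past 1.5-fold in the same direction with both antibodies. The antibodies were applied to lysates of the same mice, so their accord is not that of separate animals. No member was called. After 4 h 0 of the 10 members were above and 0 below, beside 6.34% and 9.93% of 7932 genes, and after 24 h 0 were above and 0 below, beside 7.65% and 10.1% of 7809 genes.

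Gata4, Mef2d and Tbx20 came nearest to a call. Gata4 at 24 h was 1.49-fold its Sham level with IgG (0.644 to 3.46) and 1.70-fold with anti-EZH2 (0.865 to 3.33), and without division by the median it was 1.79-fold and 1.63-fold and would be called. Without that division 9.39% of all genes were above Sham at 24 h. Mef2d at 4 h was 0.709-fold with IgG and 0.655-fold with anti-EZH2. Tbx20 at 24 h was 1.60-fold with IgG (1.09 to 2.33) and 1.40-fold with anti-EZH2 (0.943 to 2.07). It was the only member whose intervals in Sham and AngII 24 h IgG were apart. Those intervals are of FPKM not divided by the median, and the median gene was itself 1.20-fold above Sham in this pair. The share of all genes with intervals apart in this pair is not given here. In the series table Tbx20 was below Sham at 24 h with both antibodies (0.760-fold and 0.820-fold).

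Other members changed differently with each antibody. Nkx2-5 after 4 h was 1.08-fold with IgG (0.692 to 1.72) and 1.89-fold with anti-EZH2 (1.12 to 3.33). Mef2a after 4 h was 0.696-fold with IgG and 1.57-fold with anti-EZH2 (1.03 to 2.40). Mef2c after 4 h was 0.406-fold with IgG and 0.827-fold with anti-EZH2, and Hand2 was 0.529-fold (0.275 to 1.00) and 0.806-fold (0.491 to 1.34). Tbx5 ranged from 0.366-fold at 24 h to 2.84-fold at 4 h, both with anti-EZH2. Gata6 differed little between antibodies and lay between 1.20-fold and 1.24-fold in all 4 comparisons of the separate tables, and between 1.26-fold and 1.97-fold in the series table.

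**Figure D3:**
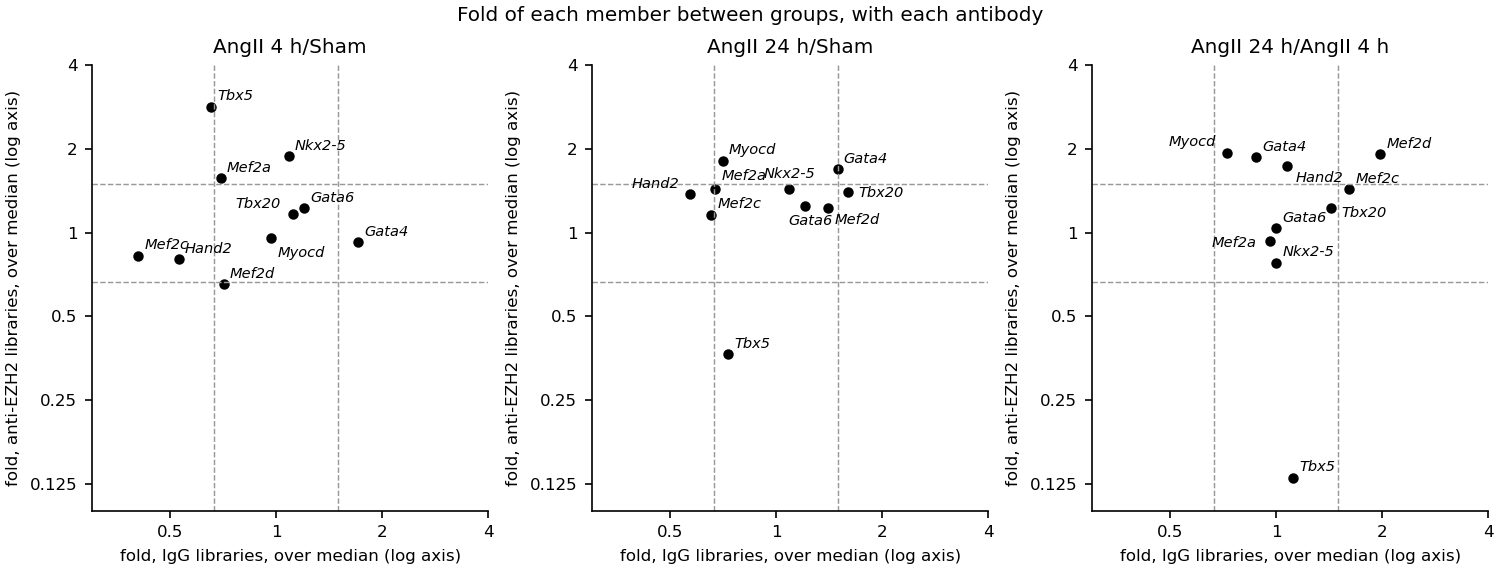
Fold of each member over the median gene with IgG (x axis, log scale) and with anti-EZH2 (y axis, log scale), for AngII 4 h and AngII 24 h against Sham and for AngII 24 h against AngII 4 h. Dashed lines mark 1.5-fold in each direction. In the corners outside both lines there is no member in the Sham comparisons, and Mef2d alone in the last one.

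Since atrial markers were high in the Sham libraries only, AngII 24 h was also set against AngII 4 h, a comparison added after seeing the data. Mef2d was then called, at 1.97-fold with IgG (1.24 to 3.14) and 1.92-fold with anti-EZH2 (1.16 to 3.17). It was the 1 member of 10 above and 0 were below, beside 6.99% and 6.12% of 7849 genes. Its levels were 5.43 FPKM at 4 h and 10.9 at 24 h with IgG, and 5.49 and 7.53 with anti-EZH2, and the series table gave 2.73-fold and 1.52-fold. Not divided by the median, the anti-EZH2 fold was 1.37 and Mef2d was not called. Hand2 (1.07-fold and 1.74-fold), Gata4 (0.874 and 1.87) and Myocd (0.727 and 1.94) were past 1.5-fold with anti-EZH2 only. In the same comparison 4 of 4 erythroid markers and 2 of 5 fibroblast markers (Col3a1 2.30-fold and Pdgfra 1.63-fold) were above and the smooth muscle marker Acta2 was below (0.630-fold), and mitochondrial genes took a larger share at 24 h with anti-EZH2, as given above. Whether these bear on Mef2d was not tested.

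The 24 h folds of some members differed between the forms of FPKM. In the series table Nkx2-5 was 3.33-fold above Sham with IgG and 4.29-fold with anti-EZH2 (1.08 and 1.44 in the separate tables), and Hand2 was 1.73-fold and 4.01-fold above (0.568 and 1.37 in the separate tables). Both would be called there, beside 16.5% of all genes above and 13.7% below in that table. Unscaled levels of Nkx2-5 in the series table were 1.37 (Sham), 1.53 (4 h) and 7.00 FPKM (24 h) with IgG and 0.875, 1.57 and 5.75 FPKM with anti-EZH2, while the fragments recovered from the separate tables, 34, 53 and 39 with IgG, showed no such difference. For Hand2 the fold with IgG changed direction between the tables, and so did those of Tbx5, Tbx20 and Myocd. With anti-EZH2, Tbx20 (1.40 and 0.820), Mef2a (1.44 and 0.912) and Mef2d (1.23 and 0.956) were above Sham in the separate tables and below it in the series table. Gata4, Gata6 and Nkx2-5 were above Sham in both tables with both antibodies. Gata4 was at 1.35-fold and 1.60-fold in the series table, and Gata6 at 1.81-fold and 1.97-fold, past 1.5-fold with both antibodies but under the minimum level there (mean 0.964 FPKM). The median gene of the series table was itself 1.54-fold and 1.53-fold above Sham at 24 h, against 1.20 and 0.959 in the separate tables, and folds are given relative to it.

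**Figure D4:**
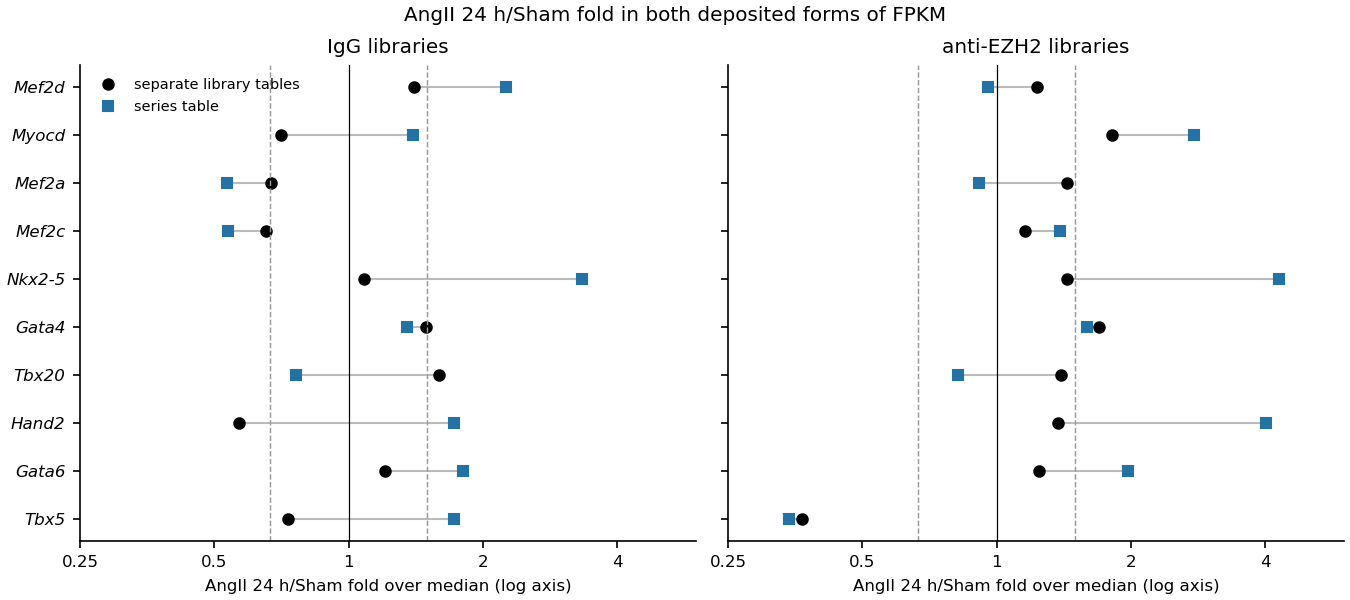
AngII 24 h/Sham fold over the median gene (x axis, log scale) of each member in the separate library tables (black circles) and in the series table (blue squares), for IgG libraries (left) and anti-EZH2 libraries (right), with dashed lines at 1.5-fold in each direction. Nkx2-5 and Hand2 are farthest apart between the tables.

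The third comparison asked whether association with EZH2 changed after AngII, taken as the relative anti-EZH2/IgG ratio of an AngII group over that of Sham. A 1.5-fold difference of this kind was common in these libraries, and each value rests on 4 single libraries. Why it was common was not tested. After 4 h 5 members were above and 1 below, beside 28.2% and 29.2% of 7932 genes, and after 24 h 4 were above and 1 below, beside 28.6% and 32.0% of 7809 genes. The median over members was 1.27 after 4 h and 1.24 after 24 h, beside 0.992 and 0.968 over all genes. As the AngII groups share the Sham libraries, the times are given side by side.

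The MADS-box factors Mef2a and Mef2c were above at each time. Mef2a changed by a factor of 2.23 at 4 h and 2.16 at 24 h, with both antibodies contributing, since its fold over Sham was 0.696 and 0.670 with IgG and 1.57 and 1.44 with anti-EZH2. Mef2c changed by 2.01 and 1.79, and Mef2d, the third expressed member of the family, by 0.912 and 0.884. In the series table the change of Mef2d at 24 h was 0.408, which would be called below. Mef2a was called at each time in 7 of 7 alternative settings. Mef2c was called at 4 h in 7 of 7 and at 24 h in 6 of 7. All settings reuse the same single libraries, and non-overlapping intervals were not required in any of the 7. Settings that changed only the FPKM minimum left the ratios as they were. For members above 1 FPKM in every library they could not give another call. These counts, here and for the other factors, therefore show dependence on processing and not the spread between animals. No interval was made for a change, and the intervals of the Mef2c ratio in Sham (0.308 to 4.26) and at 4 h (0.631 to 8.41) overlapped widely.

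Of the other factors, Hand2 changed by 1.503 at 4 h and 2.43 at 24 h and Myocd by 0.976 and 2.59, and both were called at 24 h in 7 of 7 settings. Gata4 was below at 4 h (0.536, in 7 of 7 settings) and at 1.14 at 24 h. Nkx2-5 was above at 4 h (1.72, in 5 of 7 settings) and at 1.34 at 24 h. The call of Hand2 at 4 h was made in 4 of 7 settings. Tbx5 was above at 4 h (4.29, in 4 of 7 settings) and below at 24 h (0.504, in 3 of 7). In the series table, with non-mitochondrial scaling and with FPKM above 1 in all libraries it was under the minimum and not tested. Its untested changes were 2.52 in the series table and 4.69 with non-mitochondrial scaling at 4 h, and 0.192 and 0.894 at 24 h. With a pseudocount of 1 it was tested and not called at 24 h (0.978). Gata6 (1.00 and 1.04) and Tbx20 (1.03 and 0.880) kept the ratio of Sham most closely. With FPKM scaled to the non-mitochondrial total in place of the median gene, 9 members were above and 0 below at 24 h. This scaling multiplies all genes of a comparison by the same factor, and 58.3% of the 6436 genes then tested were above and 15.2% below, with a median of 1.73.

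Across the 6 libraries the levels of Mef2c and Hand2, divided by each library's median, were most alike (Pearson's r of log2 values 0.94), and those of Gata4 and Tbx5 were least alike (r = -0.86). The median r over the 45 pairs of members was 0.059. These are descriptions of 6 libraries that share mice in pairs.

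Partners and cofactors of the members were mostly expressed at low levels. Of 27 names, 25 were found, and those not found, Mrtfa and Mrtfb, are other symbols of Mkl1 and Mkl2, which were found. Of the genes found 13 had a mean above 1 FPKM, and Hand1, Isl1 and Mef2b were at 0 in all libraries. In the anti-EZH2/IgG comparison 2 partners were above and 3 below in Sham, 1 and 2 after 4 h and 2 and 3 after 24 h, with medians of 0.854, 0.873 and 1.09. Over all genes 16.6% were above and 13.5% below in Sham, with a median of 0.999. After 4 h 12.8% and 10.3% were (median 1.01), and after 24 h 16.1% and 16.4% (median 0.999). For 13 partners the counts were near these shares, and the genes are named as a description. Those above were Zfpm1 (3.95) and Hdac4 (2.80) in Sham, Mkl1 after 4 h (9.48) and 24 h (19.2), and Hdac5 (2.31) after 24 h. Zfpm1 encodes a GATA cofactor, Hdac4 and Hdac5 encode class IIa deacetylases that bind MEF2 proteins, and Mkl1 encodes an SRF coactivator related to Myocd. Mkl1 was at 0.144 and 0.199 FPKM in the IgG libraries after AngII, so its ratios rest on very low values. Those below were Mkl1 (0.402), Tbx3 (0.420) and Camta2 (0.488) in Sham, Hdac7 (0.304) and Zfpm1 (0.359) after 4 h, and Camta2 (0.367), Smarcd3 (0.453) and Tbx3 (0.458) after 24 h. After AngII 24 h Tbx3, a T-box repressor of the conduction system, was above Sham with both antibodies (3.85-fold as their geometric mean) and Hdac7 below (0.598-fold), and after 4 h 0 of 13 were called. Over all genes 7.65% were above Sham and 10.1% below at 24 h, and 6.34% and 9.93% at 4 h. Against AngII 4 h, Tbx3 at 24 h was also above (3.22-fold), 1 of 13 partners, with 0 below, beside 6.99% and 6.12% of genes. Tbx3 was at 0.904, 0.725 and 4.01 FPKM with IgG and at 0.312, 0.882 and 1.20 FPKM with anti-EZH2 in Sham, 4 h and 24 h. Its mean passed the minimum of 1 FPKM only through the AngII 24 h IgG value, so its calls rest on low values and on that library.

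Target genes of the members were far more abundant and stayed near the median gene. All 20 were found and 19 tested. Relative anti-EZH2/IgG ratios had medians of 0.943, 1.02 and 1.01, and Cacna1c, which encodes the pore subunit of the main calcium channel, was past 2-fold after 4 h (2.04). After AngII 0 targets were above Sham with both antibodies at either time, beside 6.34% of genes at 4 h and 7.65% at 24 h. Below Sham were 1 of 19 at 4 h and 2 of 19 at 24 h, beside 9.93% and 10.1% of genes. The gap junction gene Gja1 was below after 4 h (0.540-fold), and Nppa, which encodes atrial natriuretic peptide, and the calcium store gene Casq2 were below after 24 h (0.331-fold and 0.399-fold). Nppa was at 20.2, 10.6 and 5.14 FPKM with IgG and at 10.8, 10.2 and 5.36 FPKM with anti-EZH2. Nppa is also 1 of the 4 atrial markers, and Myl7 and Myl4, the others detected, were high in Sham libraries and near 0 after AngII. Their part in the Nppa value was not tested. Against AngII 4 h, Casq2 (0.434-fold) and Acta1 (0.471-fold) were below at 24 h, 2 of 19 targets beside 6.12% of genes. Nppa was not called there (0.593-fold).

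For the remaining members the loci in mm10 were chr14:63198922-63271692 for Gata4 (ENSMUSG00000021944), chr17:26838664-26841565 for Nkx2-5 (ENSMUSG00000015579), chr5:119832668-119885219 for Tbx5 (ENSMUSG00000018263) and chr9:24720812-24774303 for Tbx20 (ENSMUSG00000031965). Those of the others were chr7:67231163-67372858 for Mef2a (ENSMUSG00000030557), chr13:83504034-83667080 for Mef2c (ENSMUSG00000005583) and chr11:65176561-65269989 for Myocd (ENSMUSG00000020542). No other entry of the tables overlapped these 7 loci.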

How the data were processed

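Per the labels, reads of stranded libraries were mapped to mm10 with TopHat2. The authors deposited FPKM in a table for each library, with an interval for each value, and in a table of the whole series; the program and annotation that made the FPKM are not given in the sources used here. Values below 0.001 FPKM (787 values) were set to 0, and 245 unnamed entries of the series table were left out. Members and lists were chosen with earlier results of these data known. Ratios were called without a test because each combination had 1 library. Genes tested had a name, a mean above 1 FPKM over the 6 libraries and values above 0 in the libraries compared, and 8636 genes passed the minimum, all 10 members among them. Fragments were inferred with a fragment length model (mean 200 nt, SD 80 nt, shortest 34 nt). For other members, ratio bounds were the ratio times or divided by the exponential of the root of summed squared relative half-widths. Antibody effects used limma 3.58.1 (R 4.3.3) with trend and Benjamini-Hochberg adjustment; its residual spread is that between 3 groups of different treatment. The procedures were tested on simulated data. Alternatives were no scaling, non-mitochondrial scaling, the series table, pseudocounts of 0.1 and 1, other FPKM minimums, non-overlapping intervals and, for limma, no group term, median scaling and leaving out each group. Named genes were all members, called list genes (at most 5 per list and comparison), overlapping entries and the most and least alike pair. Not every called list gene is reported here. Python 3.11.15, numpy 2.4.6, pandas 2.3.3 and scipy 1.17.1 were used.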

Additional observations from a re-analysis of the deposited data

Results flagged for a closer look

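Tbx5 was past 2-fold in opposite directions between groups. Its relative anti-EZH2/IgG ratio was 0.479 in Sham, 2.05 after AngII 4 h and 0.241 after AngII 24 h. Each group had 1 library per antibody, and the difference between groups was not tested. The combined interval of each ratio included 1, and Tbx5 was the lowest of the 10 members by mean FPKM.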

How the results depend on the processing

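The counts of members past 2-fold were small and moved with most settings. In Sham the count of 1 became 3 without scaling, 2 with non-mitochondrial scaling and 0 in the series table, with either pseudocount, with FPKM above 1 in all libraries or with intervals apart. After 4 h the count of 2 became 1 without scaling, with non-mitochondrial scaling, with either pseudocount or with FPKM above 1 in all libraries, and 0 in the series table or with intervals apart. In every group Tbx5 was under the minimum, and so not tested, in the series table, with non-mitochondrial scaling and with FPKM above 1 in all libraries. After 24 h the count of 3 (2 above, 1 below) became 1 in the series table and with a pseudocount of 1, and 0 with intervals apart. It was 2 (0 above, 2 below) without scaling and 4 (4 above, 0 below) with non-mitochondrial scaling. Without scaling 7.64% of all genes were above and 33.4% below at 24 h. For AngII against Sham with both antibodies, the count of 0 became 1 at 4 h (Gata6) and 4 at 24 h (Gata4, Gata6, Tbx20 and Mef2d, all above) with non-mitochondrial scaling, and at 24 h 1 without scaling, 2 in the series table and 1 (Hand2, below) with Gm28063 added to Hand2. Of all genes 20.1% were above at 4 h with non-mitochondrial scaling. At 24 h 9.39% were above without scaling and 16.5% in the series table. For AngII 24 h against 4 h, the count of 1 became 0 without scaling or with intervals apart, 2 with non-mitochondrial scaling and 4 in the series table (Nkx2-5, Mef2d and Hand2 above, Mef2a below). Of all genes 10.9% were above and 2.58% below with non-mitochondrial scaling, and 16.0% and 12.9% in the series table. Few genes of any kind were called with intervals apart, 0.0382% above and 0.191% below for AngII 24 h against 4 h. For the antibody ratio at 24 h these shares were 0.491% and 3.32%. Changed ratios numbered 3 in place of 6 at 4 h in the series table, where 26.6% of all genes were above and 27.0% below. At 24 h they numbered 9 in place of 5 with non-mitochondrial scaling. That scaling moves all genes of a comparison together, and called 35.2% of genes above in the antibody ratio at 24 h and 27.7% above at 24 h against Sham. With Gm28063 added, the change of the Hand2 ratio at 4 h reversed from 1.503 to 0.897. By limma 1 gene was called without the group term in place of 0, and 0 members in any setting, also when each group was left out in turn, with 0 genes called each time. Among values of single members, non-mitochondrial scaling moved 22 past their interval (for antibody ratios) or by over 1.5 times (for other folds) and left 48 within, the series table moved 15 and left 65, and no scaling moved 1 and left 69. The cause of these shifts was not tested. The limma fit paired the antibodies within each group, and no pairing by replicate number could be made because the labels give none. With 15 to 66 fragments per library for Gata6, Nkx2-5 and Hand2, differences under 2-fold were mostly within counting error.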
